A study of Homo sapiens with 6 samples.

Results

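The interval examined was the gene-dense end of the short arm of human chromosome 19, band 19p13.3. Its members were all binding sites whose midpoint lay between positions 300000 and 6900000 (hg19), on either strand, a stretch of 6.6 Mb. It held 5171 of the 464799 sites in the 6 deposited lists. The lists came from PAR-CLIP, in which 4-thiouridine built into RNA is linked by ultraviolet light to the protein that touches it, and the linked RNA is sequenced after immunoprecipitation. The immunoprecipitated proteins were wild-type (wt) FLAG-HA FMR1 iso1 and iso7, I304N FLAG-HA FMR1 iso1 and iso7, wt FLAG-HA FXR1 and wt FLAG-HA FXR2. All 6 were expressed from doxycycline-inducible transgenes in FlpIn T-Rex HEK293 cells, an established human embryonic kidney line. The cells received 1 µg/ml doxycycline and 100 µM 4-thiouridine for 16 h. For all 6, ultraviolet light of 365 nm was given at 0.15 J per square cm, and RNase treatment lasted 15 min at 22 °C. Each form had 1 library. The names wt iso1, wt iso7, I304N iso1 and I304N iso7 stand for the 4 FMR1 libraries below, which are listed in that order wherever 4 values follow each other, with FXR1 and FXR2 after them where 6 do. With 1 library per form, no value below has a replicate error or a p-value. What the cells kept of their own FMR1, FXR1 and FXR2 is not given in the sources used here. Intervals in brackets are exact 95% intervals and cover counting error only.

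FMR1, FXR1 and FXR2 are paralogous RNA-binding proteins with KH domains, folds that contact RNA, and they associate with ribosomes and messenger RNA. I304N changes an amino acid of a KH domain in FMR1 and is known to weaken its association with polyribosomes. Band 19p13.3 is known to be rich in GC and in short, broadly expressed genes, among them those for the translation elongation factor EEF2 and the kinase STK11, and it lies apart from the large zinc finger gene clusters of the same chromosome. Gene names, exons and base sequences under the sites were not analysed here, because the annotation at hand is on another genome build, and positions stand in their place. The label of the interval as GC-rich and gene-dense was thus not checked against annotation or sequence.

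Wild-type FMR1 isoform 1 and FXR1 stood apart from the other 4 libraries in this interval, and every comparison with either of them carries that. Of 121903 sites of wt iso1, 523 lay in the interval, 0.429% (0.393 to 0.467). The wt iso7 library had 919 of 78495, 1.17% (1.10 to 1.25). I304N iso1 had 1854 of 132219, 1.40% (1.34 to 1.47), and I304N iso7 had 1487 of 88644, 1.68% (1.59 to 1.76). FXR2 had 359 of 34521, 1.04% (0.936 to 1.15). FXR1, the shortest list, had 29 of 9017, 0.322% (0.215 to 0.462). The 4 libraries of wt iso7, both I304N forms and FXR2 were thus at least 1% each, and wt iso1 and FXR1 were below 0.5%.

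**Figure D1:**
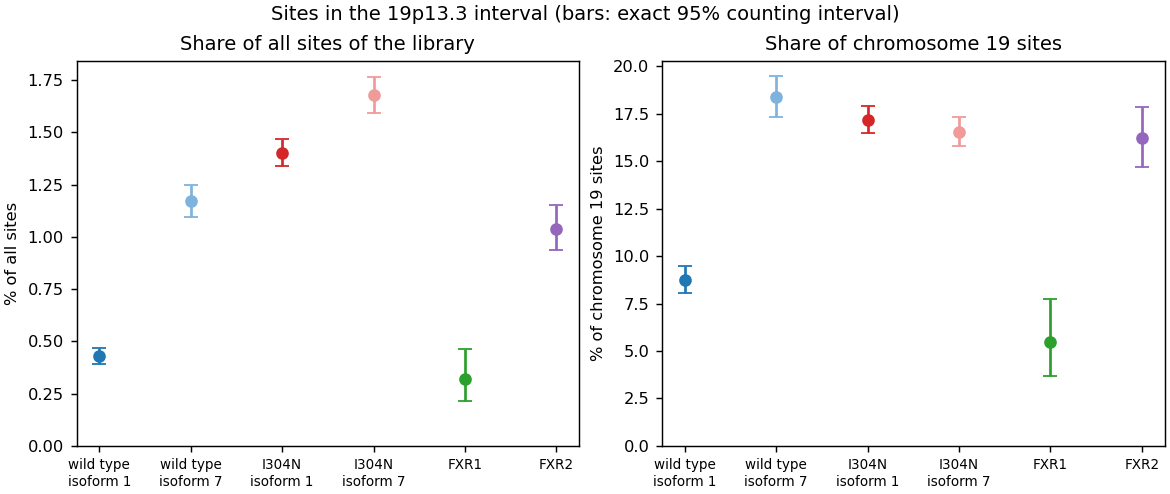
Share of sites in the 19p13.3 interval for each of the 6 libraries, in % of all sites of the library (left) and in % of its chromosome 19 sites (right). Points are single libraries and bars are exact 95% counting intervals. The wt iso1 library (0.429% of all sites) and FXR1 (0.322%) lie below the other 4 libraries in both panels.

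Both also stood apart within chromosome 19. The interval held 18.4% of the chromosome 19 sites of wt iso7 (17.3 to 19.5), 17.2% of those of I304N iso1 (16.5 to 17.9), 16.6% of those of I304N iso7 (15.8 to 17.4) and 16.2% of those of FXR2 (14.7 to 17.8). In wt iso1 it held 8.74% (8.03 to 9.48) and in FXR1 5.46% (3.69 to 7.75). The rest of chromosome 19 held 5.57% of all FXR1 sites (5.10 to 6.06), below 8.45% in I304N iso7 and 6.76% in I304N iso1 and above 5.36% in FXR2, 5.20% in wt iso7 and 4.48% in wt iso1. In the zinc finger stretch of 19p12, from 20000000 to 24000000, FXR1 was the highest library and wt iso7 the lowest. FXR1 had 0.654% of its sites there (0.498 to 0.843), FXR2 0.362%, wt iso1 0.154%, I304N iso7 0.0688%, I304N iso1 0.0529% and wt iso7 0.0331%. FXR1 thus had 59 sites in the zinc finger stretch and 29 in 19p13.3, and wt iso7 had 26 and 919.

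Of the other autosomes and X, 17 had at least 1 site between the same positions, 300000 and 6900000, in some library. Chromosome 19 held the largest share among them in wt iso7, I304N iso1, I304N iso7 and FXR2, and ranked 3 in wt iso1 and 4 in FXR1. In the first 4 of these libraries chromosome 16 came next, with 1.07%, 1.17%, 1.18% and 0.857% of sites. In wt iso1 and FXR1 the largest share lay on chromosome 12, with 0.641% and 0.699%.

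I304N was set beside the wild type of the same isoform to ask how the change in the KH domain goes with the placing of sites. In isoform 1 the share of sites in 19p13.3 was 3.27 times that of the wild type (2.96 to 3.61). In isoform 7 it was 1.43 times (1.32 to 1.56). The first value rests on wt iso1, the library that stood apart: against wt iso7 the share of I304N iso1 was 1.20 times as large, and I304N iso7 against wt iso1 gave 3.91. Within chromosome 19 alone the ratio was 1.97 in isoform 1 (1.78 to 2.17) and 0.901 in isoform 7 (0.829 to 0.979), so that in isoform 7 the direction turned. There the rest of chromosome 19 had a ratio of 1.63 (1.57 to 1.69), above the 1.43 of the interval, while in isoform 1 the rest of the chromosome had 1.51 (1.46 to 1.56), below 3.27.

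On the same stretch of other chromosomes, counting those with at least 50 sites in the pair of libraries, the I304N ratio had a median of 1.41 in isoform 1 over 16 chromosomes and of 0.877 in isoform 7 over 15. The ratio of 19p13.3 ranked 2 of 17 in isoform 1, after chromosome 16 with 3.49, and 3 of 16 in isoform 7. Chromosome 11 had 2.93 and 1.63, chromosome 1 had 2.09 and 1.61, and chromosome 3 had 0.739 and 0.328, the latter the lowest in isoform 7. The high ratio in isoform 1 was therefore shared with the matching interval of chromosome 16, where isoform 7 gave 1.11 (1.01 to 1.21).

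**Figure D2:**
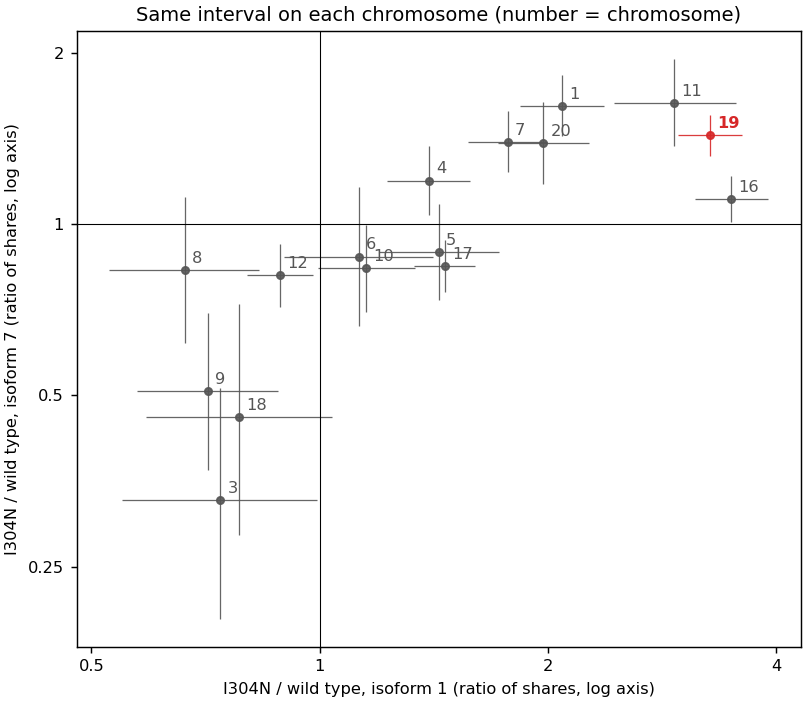
Ratio of the I304N share of sites to the wild-type share between positions 300000 and 6900000 of each chromosome, in isoform 1 (horizontal) and isoform 7 (vertical), on log axes, with exact 95% counting intervals. Chromosome 19 (red) lies at 3.27 and 1.43, chromosome 16 at 3.49 and 1.11, and chromosome 3 at 0.739 and 0.328.

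Along the interval the gain in isoform 1 was present in every stretch of about 1 Mb, whereas the gain in isoform 7 was not. From 300000 to 1000000 wt iso1 had 24 sites and I304N iso1 had 166, a ratio of 6.38 (4.14 to 10.2), the largest of the 7 stretches. The smallest was 2.51 (2.06 to 3.08), from 2000001 to 3000000, with 136 and 370 sites. In isoform 7 the ratio ran from 0.851 (0.638 to 1.13), from 5000001 to 6000000 with 102 wild-type and 98 I304N sites, to 2.09 (1.503 to 2.96) from 6000001 to 6900000 with 52 and 123 sites. FXR1 had 15 of its 29 sites between 3000001 and 4000000 and none before 1000001.

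**Figure D3:**
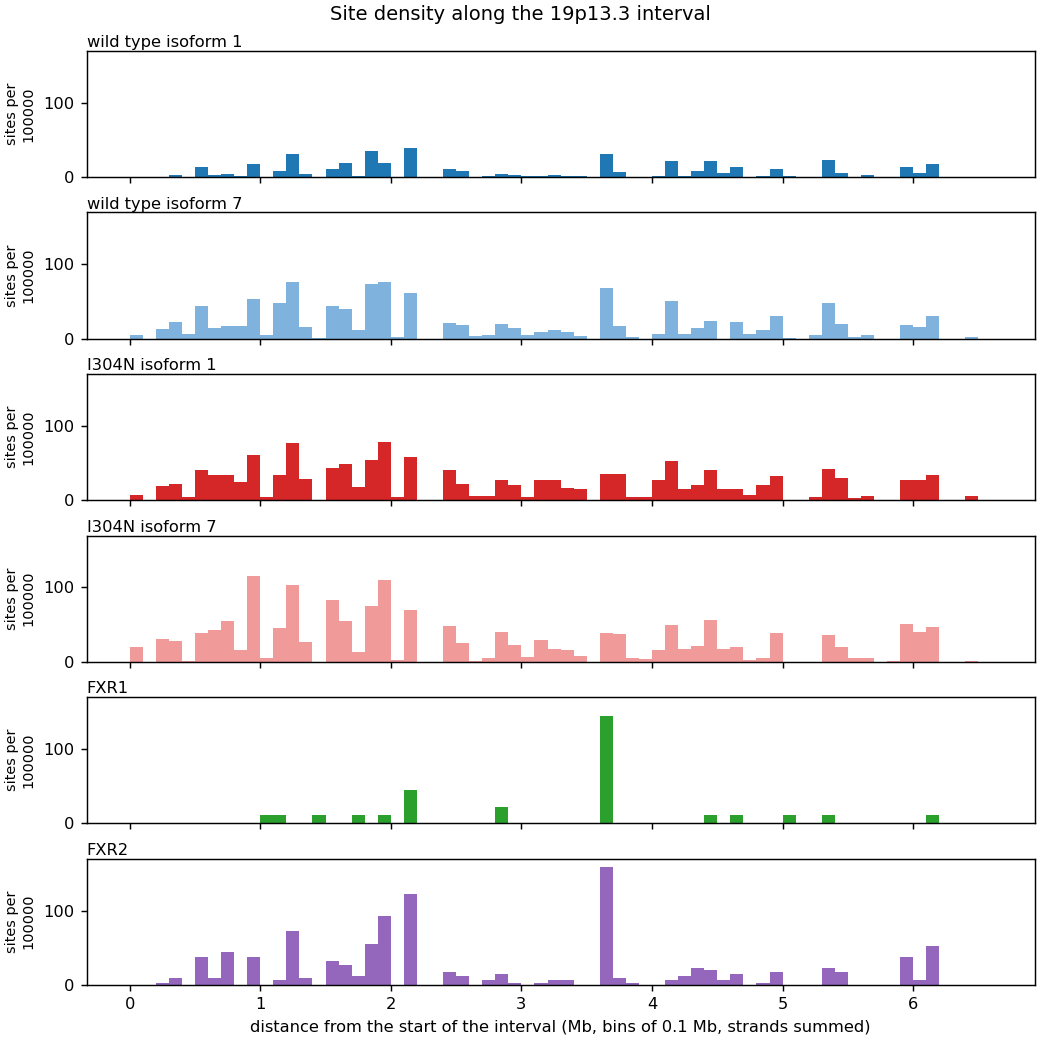
Sites per 100000 sites of the library in bins of 0.1 Mb along the interval, both strands summed, plotted by distance from the interval's start. The wt iso1 library is low over most of the interval, and FXR1 is highest in 1 bin, where FXR2 is also highest.

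In windows of 50 kb on 1 strand, 141 of 264 windows in the interval held a site of some library and 123 held none. I304N iso1 had sites in 123 windows, I304N iso7 in 109, wt iso7 in 108, wt iso1 in 67, FXR2 in 54 and FXR1 in 14. Log2 ratios were formed from sites per 100000 with a pseudocount of 1, for the 85 windows with a mean of at least 2 scaled sites over the FMR1 libraries. In isoform 1 the median log2 ratio of I304N to wild type was 2.04 in the interval and 0.25 over all 7993 windows of the genome that passed the same filter. At least 2-fold more I304N sites were found in 66 of the 85 windows, 77.6%, against 32.7% of windows genome-wide, and at least 2-fold fewer in 0, against 18% genome-wide. In isoform 7 the median was 0.64 in the interval and -0.02 over all windows. There 33 windows were at least 2-fold higher, 38.8% against 20.8% genome-wide, and 3 were at least 2-fold lower, 3.53% against 22.1% genome-wide. Both isoforms were at least 2-fold higher in 28 windows, 32.9% against 13.5% genome-wide, and both at least 2-fold lower in 0, against 7.61% genome-wide. The count of 28 depends on the pseudocount: with 5 in place of 1 it was 8, 9.41% against 5.03% genome-wide. The filter used the mean over the FMR1 libraries, here and genome-wide, so a window could pass through its I304N sites alone. Neighbouring windows can hold the same transcript, and windows are not replicates.

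**Figure D4:**
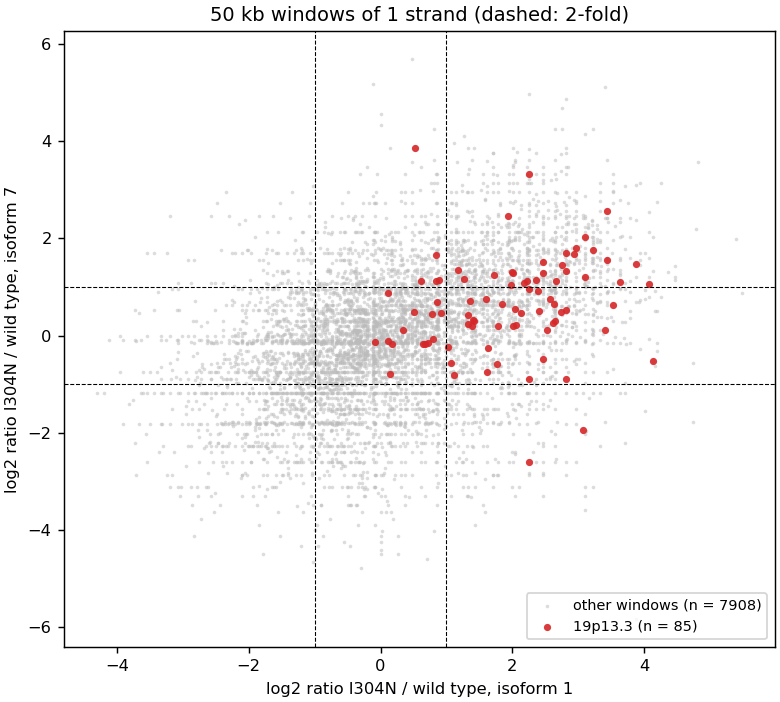
Log2 ratio of I304N to wild-type sites in 50 kb windows of 1 strand, isoform 1 (horizontal) against isoform 7 (vertical), for 85 windows of 19p13.3 (red) and the other windows of the genome (grey). Dashed lines mark 2-fold changes, and 28 of the 85 windows lie beyond them to the upper right and 0 to the lower left.

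The windows with the strongest gains in both isoforms held few sites in the wild type. On the minus strand from 3450001 to 3500000, wt iso1 had 0 sites, wt iso7 had 1, I304N iso1 had 13 and I304N iso7 had 11. Counting 3 sites in place of 0, the ratio in isoform 1 was 4.00. Its exact lower limit, which also covers counting error in I304N, was 2.81. In isoform 7 the ratio was 9.74 (1.42 to 419). Both paralogs had no site there. From 1050001 to 1100000, again on the minus strand, FMR1 counts were 0, 2, 10 and 12, and from 1000001 to 1050000 on the plus strand they were 0, 0, 5 and 8. The interval's first window on the minus strand, from 300001 to 350000, had 0, 4, 9 and 18. Only 1 of the 85 windows was lower with I304N in both isoforms, on the plus strand from 4950001 to 5000000, with 3 sites in each of the 4 libraries and log2 ratios of -0.08 and -0.14. All these windows were ranked by the same counts that give their ratios, so the ratios describe these libraries and support nothing further.

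Isoform 7 was compared with isoform 1 within each form. In the wild type the share of 19p13.3 was 2.73 times as large in isoform 7 (2.45 to 3.04), and with I304N it was 1.20 times (1.12 to 1.28). The wild-type comparison again holds wt iso1, and within chromosome 19 the I304N ratio was 0.964 (0.900 to 1.03). At least 2-fold more isoform 7 sites were found in 61 of the 85 windows in the wild type, 71.8% against 25% genome-wide, and in 3 with I304N, 3.53% against 4.73% genome-wide. At least 2-fold fewer were found in 2 windows in the wild type, 2.35% against 20% genome-wide, and in 10 with I304N, 11.8% against 19.4% genome-wide. In both forms together 1 window was at least 2-fold higher, 1.18% against 1.95% genome-wide, the minus-strand window that opens the interval, and in both at least 2-fold lower 0, against 5.29% genome-wide. Under median-of-ratios scaling the count of 1 became 9 of 93 windows, 9.68% against 5.62% genome-wide, and in windows of 25 kb 5 of 102, 4.90% against 2.02%. On the plus strand from 1250001 to 1300000 wt iso1 had 7 sites, wt iso7 had 19, I304N iso1 had 48 and I304N iso7 had 63. That window was 4.22 times denser in isoform 7 in the wild type (1.70 to 11.9) and 1.96 times with I304N (1.32 to 2.91). It was named for its rank by these same counts, so its ratios are no test.

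FXR1 and FXR2 were compared with both wild-type FMR1 libraries to ask how far the paralogs share binding places. Against wt iso1 the share of 19p13.3 was 2.42 times as large in FXR2 (2.11 to 2.78) and 0.750 times in FXR1 (0.497 to 1.09). Against wt iso7 it was 0.888 times in FXR2 (0.784 to 1.00) and 0.275 times in FXR1 (0.183 to 0.397). The direction for FXR2 thus depended on which wild-type library it was set beside. Against the mean of both, 58 windows passed the filter, with a median log2 ratio of 0.03 in FXR2 and -2.83 in FXR1, where FXR1 had no site in most windows. FXR2 was at least 2-fold higher in 7 windows, 12.1% against 14.2% genome-wide, and at least 2-fold lower in 9, 15.5% against 22.5% genome-wide. FXR1 was at least 2-fold higher in 8, 13.8% against 30.5% genome-wide, and at least 2-fold lower in 45, 77.6% against 52.2% genome-wide. A single FXR1 site weighs 11.1 scaled sites, and 7 of those 8 windows held a single FXR1 site. FXR1 and FXR2 were both at least 2-fold higher in 1 window, 1.72% against 7.96% genome-wide, on the minus strand from 3950001 to 4000000, which is described below. Both were at least 2-fold lower in 7 windows, 12.1% against 17.5% genome-wide.

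The densest windows of FXR2 were also dense in FMR1, and some FMR1-dense windows lacked FXR1. Between 1550001 and 1600000 on the minus strand wt iso1 had 37 sites, wt iso7 had 60, I304N iso1 had 102, I304N iso7 had 91 and FXR2 had 25. FXR1 had 0, which is 2.30-fold below wt iso7 when 3 sites stand in for 0. The exact upper limit of the ratio, which also covers counting error in wt iso7, was 0.552. Against wt iso1 the upper limit was 1.42. Between 2100001 and 2150000 on the same strand the counts were 36, 53, 63, 53, 0 and 19, and between 2200001 and 2250000 on the plus strand they were 15, 47, 72, 62, 0 and 23. FXR1 thus had no site at 3 places where every other library had at least 15 sites. FXR2 in turn was denser on the minus strand from 1000001 to 1050000, with 15 sites against 5 in wt iso1, a ratio of 10.6 (3.66 to 37.3), and 11 in wt iso7, a ratio of 3.10 (1.33 to 7.46). It had 2 sites on the plus strand from 1400001 to 1450000, where wt iso7 had 36, a ratio of 0.126 (0.0147 to 0.491), and wt iso1 had 9, a ratio of 0.785 (0.0825 to 3.79). The windows in this paragraph were named by the same counts that give their ratios, so the ratios describe these libraries and are no test.

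Sites lay in strand-specific stretches. When sites of any library on 1 strand no more than 1000 nt apart were chained, a step chosen after seeing the data, 561 stretches resulted, of which 155 were a single site. The 125 stretches of at least 10 sites held 3752 sites, 72.6% of the interval's total. I304N iso1 and I304N iso7 each had a site in all 125, which were selected by total number of sites, to which the I304N libraries gave the most. The wt iso7 library had a site in 116 of them, wt iso1 in 99, FXR2 in 80 and FXR1 in 7. The scaled I304N ratio was above 1 in both isoforms in 90 stretches, 72.0% against 35.1% of the 9571 such stretches genome-wide, and below 1 in both in 6, 4.80% against 30% genome-wide. In isoform 1 its counting interval lay above 1 in 40 stretches, 32.0% against 13% genome-wide, and below 1 in 0, against 1277 of the 9571 genome-wide. In isoform 7 it lay above 1 in 13, 10.4% against 6.07% genome-wide, and below 1 in 1, 0.800% against 3.42% genome-wide. Both sets of stretches were kept by the same minimum of 10 sites, to which I304N sites count.

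The stretch with the most sites ran from 2426243 to 2432523 on the minus strand (6281 nt) and had 182 sites. The wt iso1 library had 28 of them, wt iso7 had 32, I304N iso1 had 47, I304N iso7 had 40, FXR1 had 3 and FXR2 had 32. The I304N ratio there was 1.55 in isoform 1 (0.949 to 2.57) and 1.11 in isoform 7 (0.678 to 1.82), neither beyond counting error. From 4791789 to 4795616 on the plus strand the FMR1 libraries had 19, 14, 39 and 36 sites, with ratios of 1.89 (1.07 to 3.47) and 2.28 (1.20 to 4.57), and the paralogs had 0 in FXR1 and 6 in FXR2. From 6210461 to 6213415 on the minus strand the counts were 15, 9, 26 and 35, with ratios of 1.60 (0.816 to 3.25) and 3.44 (1.62 to 8.15). From 1257194 to 1259050 on the plus strand they were 4, 6, 20 and 21, with ratios of 4.61 (1.54 to 18.5) and 3.10 (1.21 to 9.39). Of these 4 stretches, the counting interval lay above 1 in both isoforms in the second and the fourth. The 4 were picked with these counts known, so their ratios describe them and are no test. Other site-rich stretches on the minus strand had an isoform 7 interval that included 1. From 6413373 to 6420145 the ratios were 1.66 (0.935 to 3.03) and 1.42 (0.786 to 2.61). From 1573989 to 1578535 they were 2.04 (1.05 to 4.15) and 1.12 (0.624 to 2.02).

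The stretch with the most FXR1 and FXR2 sites differed from most others in that its I304N ratios lay below 1, though within counting error. With the permitted gap widened to 2000 nt it ran from 3976021 to 3985457 on the minus strand (9437 nt) and held 210 sites. FXR1 had 13 sites there, 44.8% of its sites in the interval, and FXR2 had 54, 15.0%. Among FMR1 libraries, wt iso1 had 37, wt iso7 had 45, I304N iso1 had 29 and I304N iso7 had 32. The share of sites in FXR1 was higher by a factor of 4.75 than in wt iso1 (2.32 to 9.14) and by a factor of 2.51 than in wt iso7 (1.24 to 4.74), and for FXR2 the factors were 5.15 (3.33 to 8.05) and 2.73 (1.80 to 4.15). This stretch was picked for its FXR1 and FXR2 sites, so these factors describe it and are no test. The I304N ratio was 0.723 in isoform 1 (0.429 to 1.21) and 0.630 in isoform 7 (0.387 to 1.01). Without this stretch FXR1 had 16 sites in 19p13.3. Its ratio was then 0.445 against wt iso1 (0.252 to 0.730) and 0.159 against wt iso7 (0.0907 to 0.260). For FXR2 the ratios were then 2.22 (1.91 to 2.56) and 0.794 (0.694 to 0.905). Taking out a stretch picked for its FXR sites had to lower these ratios, so the lower values are no test either.

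The I304N sites in this stretch were fewer and wider than those of the wild type. I304N iso1 covered 3001 nt of it with 29 sites of 103 nt on average, and wt iso1 covered 2717 nt with 37 sites of 73.4 nt. I304N iso7 covered 2829 nt with sites of 88.4 nt, and wt iso7 covered 2500 nt with sites of 55.6 nt. FXR2 covered 1524 nt with sites of 28.2 nt, and FXR1 255 nt with sites of 19.6 nt. From 3982806 to 3983015, for example, each I304N library had a single site, of 206 and 210 nt. The wt iso1 library had 4 sites in that span, of 19, 32, 116 and 13 nt, wt iso7 had 2, of 30 and 134 nt, FXR2 had 4, of 18 to 33 nt, and FXR1 had 1 of 17 nt, from 3982841 to 3982857. Scaled to 1000000 nt covered by the library, the stretch took 809 in I304N iso1 against 755 in wt iso1, and 1132 in I304N iso7 against 1371 in wt iso7. By coverage I304N was thus higher in isoform 1 and lower in isoform 7, whereas by sites both ratios were below 1.

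**Figure D5:**
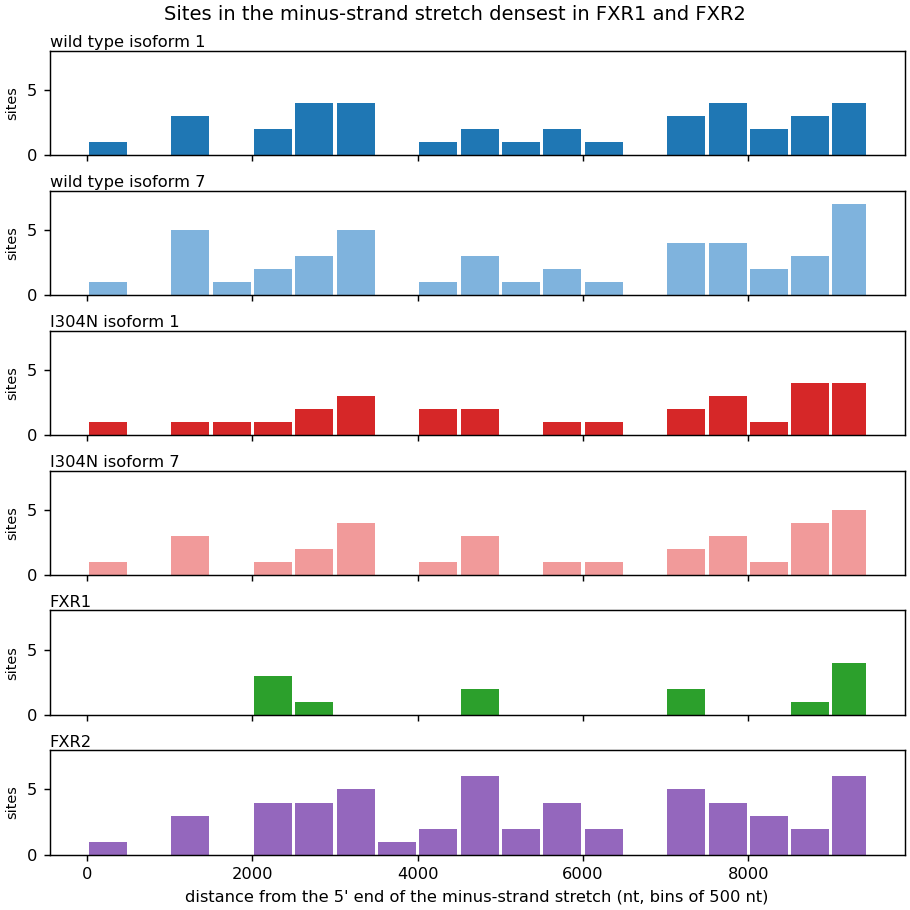
Number of sites in bins of 500 nt along the 9437 nt minus-strand stretch richest in FXR1 and FXR2, by distance from its 5' end, for each library. FMR1 and FXR2 sites are spread along the stretch, and FXR1 has 13 sites in 6 of the bins, 4 of them in the last bin, at the 3' end.

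Most of the 29 FXR1 sites met a site of another library, as did FXR1 sites elsewhere. FXR2 overlapped 22 of them on their strand, counting 1 shared nt as overlap, wt iso1 also 22, and wt iso7, I304N iso1 and I304N iso7 each 19. For FXR2 this was 75.9% (56.5 to 89.7) against 74.4% of FXR1 sites elsewhere, and for wt iso1 75.9% against 70.0%. For wt iso7 it was 65.5% (45.7 to 82.1) against 21.1%, for I304N iso1 65.5% against 27.3% and for I304N iso7 65.5% against 18.1%. Over all 29 sites, only the overlaps with these 3 libraries lay above those elsewhere by more than counting error. Of the 16 FXR1 sites outside the FXR-rich minus-strand stretch, wt iso1 overlapped 9, FXR2 10, and each of the other FMR1 libraries 7. The higher overlaps with wt iso7 and both I304N libraries thus rested in part on that stretch, which was picked for its FXR sites. Outside it, 7 of 16 was still a larger share than the 21.1%, 27.3% and 18.1% elsewhere, on few sites. Whether that remaining difference goes beyond counting error was not tested. No other library overlapped 4 of the 29, 13.8% against 14.1% elsewhere, all outside that stretch, at 1496348 to 1496363 and 5336644 to 5336659 on the plus strand and at 2439647 to 2439662 and 3135540 to 3135554 on the minus strand. Both ends were the same in FXR1 and FXR2 at 3 of the 29 sites, 10.3%, whereas elsewhere 43.9% of FXR1 sites had both ends in common with an FXR2 site.

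Sites of the interval were shared between libraries to an extent that differed from the rest of the genome, and in both directions. Of the 523 wt iso1 sites, 85.7% overlapped a site of I304N iso1 (82.4 to 88.6), against 44.4% of its sites elsewhere. It shared 76.9% with I304N iso7, against 30.2% elsewhere, and 61.0% with wt iso7, against 29.2%. Seen from the longer lists the order was turned: 22.8% of I304N iso1 sites overlapped wt iso1, against 41.9% elsewhere, and 35.9% of wt iso7 sites did, against 48.7%. Few sites were thus found here for wt iso1, most of them at places held by other FMR1 libraries. Between the I304N libraries 76.7% of isoform 7 sites overlapped an isoform 1 site, against 75.9% elsewhere. Of FXR2 sites, 81.1% overlapped I304N iso1 (76.6 to 85.0), against 45.8% elsewhere, and 54.6% overlapped wt iso1 (49.3 to 59.8), against 64.5%. These levels also move with the number of sites each library has in the interval, and the part of that was not tested.

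Sites of any library touching on 1 strand were joined into 2388 merged regions. Of these, 1138 belonged to a single library, 47.7% against 55.4% elsewhere, and 10 to all 6, 0.419% against 0.609% elsewhere. FMR1 had a site in 2343 regions, of which 449 belonged to both I304N libraries and to neither wild-type library, 19.2% against 8.55% elsewhere. The reverse, both wild-type libraries without either I304N library, held for 5 regions, 0.213% against 1.98% elsewhere. A further 248 were missing from wt iso1 alone, 10.6% against 4.59%, while 85 were missing from wt iso7 alone, 3.63% against 4.18%. Of the 292 regions with an FXR2 site, 41 had no FMR1 site, 14.0% (10.3 to 18.6) against 26.5% elsewhere. As with the overlaps, these shares move with the number of sites each library has in the interval, and the part of that was not tested.

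Of the 10 regions held by all 6 libraries, 5 lay in the minus-strand stretch described above, from 3976081 to 3976602, 3977821 to 3978172, 3980513 to 3980706, 3982806 to 3983015 and 3983108 to 3983287. The first had 39 sites. A compact example lay on the plus strand from 4961479 to 4961539, with 1 site per library. There FXR1 had its site from 4961520 to 4961534, wt iso1 from 4961518 to 4961538, FXR2 from 4961518 to 4961539, wt iso7 from 4961515 to 4961539, and both I304N libraries had the same 61 nt from 4961479 to 4961539. The sites of 15 to 25 nt of the other libraries lay inside the longer I304N site, toward its 3' end. From 4724651 to 4724719 on the minus strand, all 7 sites of the shared region were marked as lying in a repeat.

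Set beside the pooled rest of the genome only, properties that did not enter the choice of members also set the interval apart. The minus strand held 58.9% of its sites in wt iso1 (54.5 to 63.1), 57.7% in wt iso7, 56.9% in I304N iso1, 56.3% in I304N iso7, 71.6% in FXR2 (66.6 to 76.2) and 72.4% in FXR1 (52.8 to 87.3), against 48.0% to 49.0% elsewhere. The FXR1 value rests on the minus-strand stretch from 3976021 to 3985457: without it 8 of 16 FXR1 sites lay on the minus strand, 50.0% (24.7 to 75.3), and in FXR2 203 of 305, 66.6% (61.0 to 71.8). In the FMR1 libraries the share without it was 55.3% to 56.2%. Sites marked as repeats were less frequent than elsewhere in wt iso1, at 0.765% (0.209 to 1.95) against 5.37%, in wt iso7, at 1.96% (1.16 to 3.08) against 4.54%, in I304N iso1, at 1.89% (1.32 to 2.62) against 3.05%, and in FXR2, at 1.11% (0.304 to 2.83) against 3.94%. In I304N iso7 the shares were 3.03% (2.22 to 4.03) and 3.49%, and in FXR1 1 of 29 sites was so marked.

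Sites were wider on average in the interval than elsewhere in wt iso7, both I304N libraries and FXR2, and narrower in wt iso1 and FXR1. In I304N iso1 the mean was 31.4 nt in the interval (SD 21.9 over 1854 sites) and 28.0 nt elsewhere (SD 18.4), and in I304N iso7 it was 31.6 nt (SD 24.1 over 1487 sites) and 28.1 nt (SD 18.4). In wt iso7 it was 24.6 nt (SD 13.6) and 23.2 nt, in wt iso1 28.4 nt (SD 20.6) and 29.5 nt, in FXR2 21.5 nt (SD 7.59) and 20.8 nt, and in FXR1 18.9 nt (SD 3.93) and 20.1 nt. The wider means of wt iso7 and FXR2 rested on the minus-strand stretch from 3976021 to 3985457. There 45 wt iso7 sites averaged 55.6 nt and 54 FXR2 sites 28.2 nt. Without that stretch neither library's mean in the interval was above its mean elsewhere. Medians in the interval and elsewhere were 22 and 21 nt in wt iso7, and 20 nt in both places in FXR2. Each difference in means was smaller than the SD of single sites, which does not measure the error of a mean. Isolated sites, those more than 1000 nt from the next of their library on that strand, made up 24.7% in wt iso1 (21.0 to 28.6), against 12.7% elsewhere. In I304N iso1 they made up 9.65% (8.35 to 11.1), against 15.5%, and in I304N iso7 11.2% (9.67 to 12.9), against 16.4%. In wt iso7 they made up 23.1% (20.4 to 25.9), against 28.7%, in FXR2 24.2% (19.9 to 29.0), against 29.4%, and in FXR1 48.3% (29.4 to 67.5), against 46.2%. Sites in 19p13.3 were thus less isolated than the library's sites elsewhere in 4 libraries and more isolated in wt iso1. In FXR1 the difference was within counting error. Isolation also moves with the number of sites each library has in the interval, and the part of that was not tested.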

How the data were processed

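Values were derived from 6 deposited site lists, 1 library per protein form, grouped by the immunoprecipitated protein in the labels. The submitters' processing notes name Bowtie 0.12.7 and hg19. How sites were called, and from which reads, is not given in the sources used here, and the lists hold no read numbers. The deposited score is a flag, 1000 outside repeats and 0 in a repeat, per the file headers. Every value therefore counts sites, and sequencing depth, calling and binding cannot be told apart. Which sequencer ran which library is not given, so no value within a sequencing batch could be had.

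Sites were assigned by midpoint, with 1-based coordinates. Shares carry exact Clopper-Pearson and ratios exact conditional intervals at 95%, for counting error only. A count of 0 was set to 3 sites for bounds. Windows of 50 kb were scaled to 100000 sites per library. Windows named were the 3 densest per library and up to 5 up and 5 down per comparison, and the text gives a selection. Chained stretches were added later. The members, lists and comparisons were chosen with earlier results of these data known. The planned gene lists, marker genes and motifs need an hg19 annotation or genome and were not used here. The functions were tested on simulated data. Python 3.11.15, pandas 2.3.3, numpy 2.4.6, SciPy 1.17.1 and matplotlib 3.10.9 were used. Alternatives tried are given in the closing section.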

Additional observations from a re-analysis of the deposited data

Results flagged for a closer look

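In some parts of the interval the I304N ratio was above 1 in isoform 1 and below 1 in isoform 7. Each form has 1 library, so the difference between isoforms was not tested, and the parts listed were picked because they show it. From 5000001 to 6000000 the ratio of I304N to wild type was 3.34 in isoform 1 and 0.851 in isoform 7. On the plus strand from 5100001 to 5150000 the FMR1 libraries had 1, 9, 19 and 2 sites, a ratio of 17.5 (2.78 to 728) in isoform 1 and 0.197 (0.0207 to 0.951) in isoform 7, the only window listed here where both intervals excluded 1. From 3950001 to 4000000 on the minus strand they had 38, 53, 46 and 34, ratios of 1.12 (0.711 to 1.76) and 0.568 (0.358 to 0.890). In the other 5 windows the isoform 7 interval included 1. From 1400001 to 1450000 on the plus strand they had 9, 36, 33 and 34 sites, ratios of 3.38 (1.58 to 8.03) and 0.836 (0.508 to 1.38), and from 4400001 to 4450000 they had 18, 25, 41 and 24, ratios of 2.10 (1.18 to 3.88) and 0.850 (0.465 to 1.55). The remaining 3 had the same number of isoform 7 sites in wild type and I304N, so that their common ratio of 0.886 reflects only the library totals. These had 36, 53, 63 and 53 sites on the minus strand from 2100001 to 2150000 (isoform 1 ratio 1.61), 5, 2, 6 and 2 on the plus strand from 5600001 to 5650000 (1.11), and 4, 4, 8 and 4 on the minus strand from 5900001 to 5950000 (1.84). The wt iso1 library, low over most of the interval, is the reference of every isoform 1 ratio given here, and its part in these differences was not tested.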

How the results depend on the processing

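No paired analysis was possible because each protein form has 1 library and no result comes from a test across replicates. Leaving out a replicate was not possible for the same reason. Leaving out repeat sites, leaving out mitochondrial sites, ignoring strand in overlaps, counting both strands together and windows of 100 kb moved none of the values they were applied to beyond the counting interval or 1.5 times.

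With chromosome 19 as the total, the I304N ratio was 1.97 in isoform 1 and turned to 0.901 in isoform 7; isoform 7 against isoform 1 was 2.11 in the wild type and turned to 0.964 with I304N, and FXR2 against wt iso1 was 1.86. With the wild type of the other isoform as reference, an alternative chosen after seeing the data, the I304N ratios were 1.20 in isoform 1 and 3.91 in isoform 7.

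Joining sites less than 50 nt apart gave shares of 0.560% in wt iso1 and 1.54% in I304N iso7, and ratios of 2.43 for I304N iso1, 2.07 for wt iso7 to isoform 1 and 1.69 for FXR2 to wt iso1. By covered nucleotides the shares were 1.57% in I304N iso1 and 1.88% in I304N iso7, and the ratio in isoform 1 was 3.81. Without the 5 densest windows the shares were 0.288%, 0.841%, 1.14%, 1.34%, 0.133% and 0.568% in the order wt iso1 and iso7, I304N iso1 and iso7, FXR1 and FXR2. The ratios were then 3.97 and 1.60 for I304N in isoforms 1 and 7, 0.464 and 0.159 for FXR1 and 1.97 and 0.675 for FXR2 against wt iso1 and iso7. Up to 3600000, and beyond it, the ratios were 3.65 and 2.79 for I304N iso1, 3.15 and 2.20 for isoform 7 to 1 in the wild type, 1.29 and 1.04 with I304N, and 0.162 and 0.476 for FXR1 against wt iso7.

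Of the window counts, 2-fold gains with I304N in both isoforms fell from 28 to 8 with a pseudocount of 5, 9.41% against 5.03% genome-wide. Gains of isoform 7 in both forms were 2 with a pseudocount of 0.5, 2.35% against 2.53% genome-wide. They were 9 under median-of-ratios scaling, 9.68% against 5.62%, and 5 in windows of 25 kb, 4.90% against 2.02%. FXR1 gains were 4 with a filter of 4 sites and 2 under median-of-ratios scaling, and FXR1 losses were 72 without a filter. FXR2 gains were 11 without a filter and 2 under median-of-ratios scaling, and FXR2 losses were 5 with a pseudocount of 5, 35 without a filter and 5 with a filter of 4 sites. The number of windows tested also changes with the filter and the scaling. Genome-wide shares under these settings were not computed for FXR1 and FXR2, so their counts are not read against the genome.

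Requiring 50% of both sites lowered overlaps of wt iso1 to 46.3% with wt iso7, 50.3% with I304N iso1 and 45.3% with I304N iso7. The wt iso7 library then shared 46.8% and 41.6% with I304N iso1 and iso7, and I304N iso7 shared 62.6% with I304N iso1. FXR1 shared 27.6%, 20.7%, 3.45% and 10.3%, and FXR2 28.4%, 35.7%, 30.1% and 30.6%, with wt iso1 and iso7 and I304N iso1 and iso7. With 50% of the shorter site FXR2 shared 53.5% with wt iso7. The cause of these shifts was not tested. With 29 FXR1 sites, differences in FXR1 are limited by counting.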

Other observations

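The neighbouring interval toward the centromere, between 6900000 and 13000000, gave the same order of libraries. It held 0.504% of sites in wt iso1, 0.725% in wt iso7, 0.967% in I304N iso1, 1.09% in I304N iso7, 0.355% in FXR1 and 0.603% in FXR2. The I304N ratio there was 1.92 in isoform 1 (1.74 to 2.12), below the 3.27 of 19p13.3, and 1.497 in isoform 7 (1.35 to 1.66), close to 1.43. In the zinc finger stretch of 19q13.4, from 52000000 to 59000000, it was 0.955 in isoform 1 and 1.38 in isoform 7. FXR1 had its largest share of these stretches there, 1.41% (1.18 to 1.67).

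The share of sites in a library's own 5 densest windows rose as its number of sites in 19p13.3 fell. The part of list length in this was not tested, and the share was not read as a difference between proteins. The 5 densest windows of each library held 18.9% of the sites of I304N iso1 in 19p13.3, 22.1% of those of I304N iso7, 28.4% of those of wt iso7, 34.4% of those of wt iso1, 45.7% of those of FXR2 and 69.0% of the 29 FXR1 sites. Sites with both ends the same numbered 92 between the I304N libraries, 6.19% of the shorter list against 5.32% elsewhere.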
